A study of Mus musculus with 65 samples.

Results

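The regions described here are 1803 binding sites of CTCF in mouse testis at which the axis protein HORMAD1 was called in mice lacking Mei4 and in no other genotype examined. They are called Mei4KO-only sites below. They were chosen from 32676 CTCF peaks of the wild type. Of these, 31785 lay on chromosomes 1 to 19, and 30630 of those had no wild-type DMC1 hotspot and were eligible. The series has no CTCF sample of Mei4KO, so CTCF binding at these sites in that genotype is not known. A Mei4KO-only site is an eligible CTCF peak that shares at least 1 bp with a HORMAD1 peak of Mei4KO and none with a HORMAD1 peak of the wild type, Prdm9KO, Spo11KO or Iho1KO. All HORMAD1 values in Mei4KO therefore describe the choice and are not findings.

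In early meiotic prophase each chromosome is drawn into an array of chromatin loops anchored on a protein axis. HORMAD1 and SYCP3 are components of that axis. MEI4 and IHO1 belong to the machinery that lets SPO11 make DNA double-strand breaks, and IHO1 is known to need HORMAD1 for its recruitment to the axis. In mice the methyltransferase PRDM9 sets where breaks form, the recombinase DMC1 marks the broken ends, and CTCF is an insulator protein that helps to position chromatin loops.

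The series precipitated these proteins from synchronised testes and sequenced the bound DNA (ChIP-seq). Male pups received WIN 18,466, which the labels describe as blocking retinoic acid, by mouth from 1.5 days of age for 7 to 10 days. One injection of retinoic acid followed, and testes were collected 8 days later, when 80 to 95% of cells were leptotene or zygotene spermatocytes. All samples are labelled C57BL/6JCrl and share this treatment. Wild-type mice served as controls for Prdm9KO (B6;129P2-Prdm9tm1Ymat/J), Spo11KO (Spo11tm1Mjn), Mei4KO (Mei4tm1Bdm), Iho1KO (Iho1tm1.2Atot) and Hormad1KO (Hormad1tm1.2Atot). Whole testis was used, so some chromatin came from other cells. No marker of a cell type can be read from peak lists.

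Each combination of protein and genotype compared here had 1 deposited peak list, so no difference has a replicate check. Intervals below are 95% intervals of counting error only, with sites treated as independent. A difference is called where its interval excludes 0. Sequencing depth is unknown for every list. The HORMAD1 lists held 5275 peaks in Mei4KO, 3149 in Iho1KO, 2897 in Spo11KO, 1715 in the wild type and 1009 in Prdm9KO. The Mei4KO list was the longest of the 5, and its part in the number of Mei4KO-only sites was not tested. Of the 3245 eligible CTCF sites with a Mei4KO HORMAD1 peak, 55.6% were in that list alone. The share seen in a single list was 13.7% for Iho1KO (262 of 1916 sites), 5.86% for Spo11KO (83 of 1417), 4.22% for the wild type (25 of 592) and 2.18% for Prdm9KO (13 of 596).

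Mei4KO-only sites were compared with 2 other classes of eligible CTCF sites. Recurrent sites, 1442 in number, had HORMAD1 in Mei4KO and in at least 1 other list, most often Iho1KO (85.6% of them) or Spo11KO (63.2%), and in 24.2% the wild type. At 26538 sites no HORMAD1 list had a peak. A further 847 sites had HORMAD1 in other lists but not in Mei4KO.

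The sites that anchor these results are CTCF-bound DNA, and a few promoters show what such a sequence looks like. The core CTCF motif searched was CCA, any 2 bases, AG, any 2 bases and GGC, on either strand, in RefSeq promoter windows of GRCm38.p6, which run from 250 bases before to 50 after a gene's start. Below are the 250 bases before the start, 5′ to 3′ on the gene's strand, of the 6 promoters with the highest CTCF score among those wholly inside a Mei4KO-only CTCF peak and with the motif in these bases. Capitals mark the motif, which is on the other strand for Gm41099 and Vps18.
Gm41414: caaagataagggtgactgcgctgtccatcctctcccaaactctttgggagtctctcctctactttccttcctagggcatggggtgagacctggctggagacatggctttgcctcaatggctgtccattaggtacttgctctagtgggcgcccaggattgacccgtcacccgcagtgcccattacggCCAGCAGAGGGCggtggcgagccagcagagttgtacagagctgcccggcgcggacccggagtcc
Cpne8: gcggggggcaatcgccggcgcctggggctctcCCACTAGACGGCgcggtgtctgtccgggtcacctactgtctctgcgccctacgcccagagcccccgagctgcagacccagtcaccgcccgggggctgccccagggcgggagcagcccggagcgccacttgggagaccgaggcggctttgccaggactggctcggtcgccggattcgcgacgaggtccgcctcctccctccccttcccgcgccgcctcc
Gm41099: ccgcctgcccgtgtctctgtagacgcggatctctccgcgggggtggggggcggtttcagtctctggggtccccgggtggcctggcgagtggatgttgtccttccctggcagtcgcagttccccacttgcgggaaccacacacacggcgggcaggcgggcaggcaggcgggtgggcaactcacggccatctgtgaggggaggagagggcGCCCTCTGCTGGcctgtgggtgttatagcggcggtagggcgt
Vps18: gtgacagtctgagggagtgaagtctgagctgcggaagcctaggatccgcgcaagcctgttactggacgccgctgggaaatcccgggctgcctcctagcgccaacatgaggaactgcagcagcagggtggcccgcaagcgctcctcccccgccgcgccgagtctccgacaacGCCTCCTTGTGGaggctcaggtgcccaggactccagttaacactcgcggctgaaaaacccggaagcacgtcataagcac
Slc25a38: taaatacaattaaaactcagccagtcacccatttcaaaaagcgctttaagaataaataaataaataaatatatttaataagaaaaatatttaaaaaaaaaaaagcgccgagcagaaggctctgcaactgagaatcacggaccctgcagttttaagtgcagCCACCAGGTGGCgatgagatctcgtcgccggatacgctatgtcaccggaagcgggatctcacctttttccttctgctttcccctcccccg
Cldn1: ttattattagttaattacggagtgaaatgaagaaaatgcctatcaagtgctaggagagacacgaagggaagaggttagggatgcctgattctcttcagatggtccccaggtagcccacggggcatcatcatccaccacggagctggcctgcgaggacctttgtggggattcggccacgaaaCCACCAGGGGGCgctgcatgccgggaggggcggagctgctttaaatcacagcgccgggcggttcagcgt

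Gm41414, at chr16:5306588-5306837 on the plus strand, lies in a CTCF peak with a deposited score of 7.52, and its motif is 232 bp from the centre of that peak. Cpne8 (chr15:90679389-90679638, minus strand), which encodes a copine, a calcium-dependent membrane-binding protein, lies in a peak with a score of 6.37, with the motif 21 bp from the centre. For Gm41099 (chr14:19041966-19042215, plus strand) the score was 6.13. For Vps18 (chr2:119288492-119288741, plus strand), a subunit of the complexes that tether vesicles to lysosomes, it was 5.85. Slc25a38 (chr9:120110132-120110381, plus strand), a mitochondrial carrier used in haem synthesis, had 5.32. Cldn1 (chr16:26371840-26372089, minus strand), a tight-junction claudin, had 5.03, with the motif 42 bp from the centre. These examples were chosen by score and motif after the values were known, and the promoter table has no window on chromosome 18.

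Over all 214 promoter windows that lay wholly inside Mei4KO-only CTCF peaks, 20 held the motif (9.35%, 6.13 to 14.0). The share was 8.57% of 175 windows inside recurrent sites and 5.66% of 2900 windows inside sites without a HORMAD1 peak, against 2.43% of all 32851 promoter windows. The difference from recurrent sites was 0.774 percentage points (-5.24 to 6.48) and was not called. The difference from sites without HORMAD1 was 3.69 points (0.352 to 8.40) and was called, but it was not with a looser motif, open to any base at position 3 (4.39 points, -0.677 to 10.4), which occurred in 20.6% and 16.2% of these windows and in 8.61% of all windows. Windows, not sites, were counted here. Start sites lay at 176 Mei4KO-only sites, 142 recurrent sites and 2360 sites without HORMAD1, so some peaks held several windows. The intervals treat windows as independent and may be too narrow. Whether the call holds with 1 window per peak was not tested. A match is a string of letters in the window and no measure of binding.

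Mei4KO-only sites were strong CTCF sites, though weaker than recurrent ones. The deposited CTCF score, whose unit the authors did not name, had a median of 2.96 (quartiles 2.02 and 3.88, range -0.80 to 12.4). The median was 3.77 at recurrent sites (quartiles 2.86 and 4.71) and 1.76 at sites without HORMAD1 (1.21 and 2.64). Above the median of all eligible sites, which by definition holds for 50% of them, were 1403 of the 1803 Mei4KO-only sites (77.8%, 75.8 to 79.7). This was 33.2 points more than at sites without HORMAD1 (31.1 to 35.1) and 15.7 points fewer than at recurrent sites (-15.7, -18.0 to -13.3). The 3 distributions were thus shifted against each other but overlapped, and 144 Mei4KO-only sites (7.99%) fell in the lowest of 4 equal score classes while 927 (51.4%) fell in the highest.

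The CTCF peaks were also wide. Their median width was 2325 bp at Mei4KO-only sites, 2780 bp at recurrent sites and 1463 bp at sites without HORMAD1. A wider peak has more room to overlap any other interval, so a share of overlap can move with width. The shares were therefore also computed in the narrower 50% of CTCF peaks, an alternative added after the data were seen, and results that changed there are named beside their values.

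**Figure D1:**
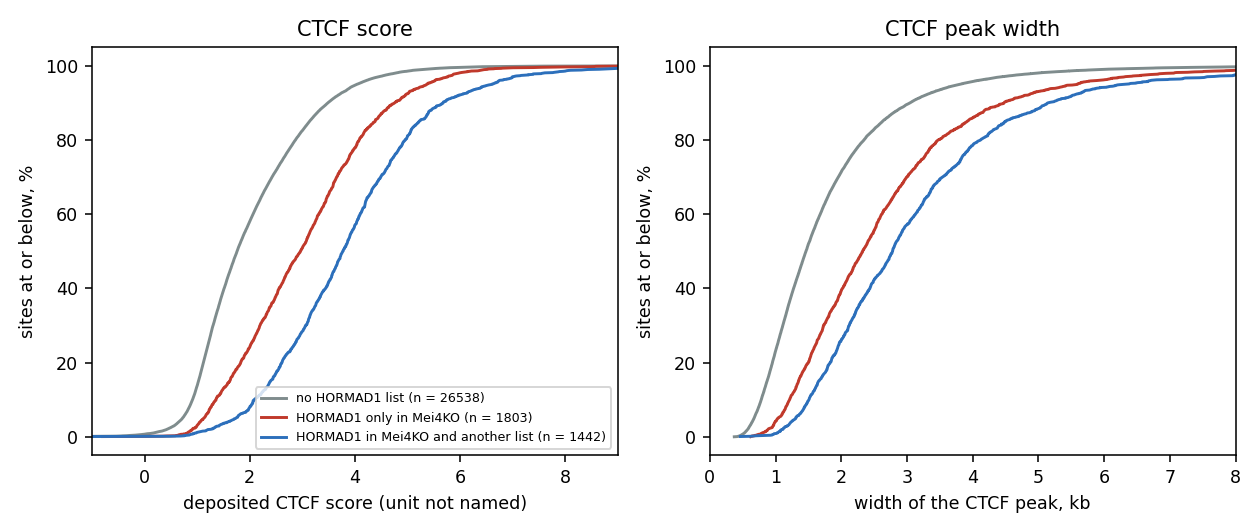
Cumulative percent of eligible CTCF sites (y axis) against the deposited CTCF score, of unnamed unit, on the left and against CTCF peak width in kb on the right, for the 3 classes of sites. The red curve of Mei4KO-only sites lies between the other 2 in both panels, with a median score of 2.96 and a median width of 2325 bp; a few values beyond the axis limits are not drawn.

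When eligible sites were ranked into 10 equal classes of 3063 by score, the share that was Mei4KO-only went from 1.34% (0.988 to 1.81) in the lowest class to 14.8% (13.6 to 16.1) in the highest. The share that was recurrent went from 0.424% to 22.1% over the same classes. In the class next to the top, 11.5% (10.4 to 12.7) were Mei4KO-only and 9.53% (8.54 to 10.6) recurrent. Recurrent sites thus outnumbered Mei4KO-only ones in the top class alone.

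**Figure D2:**
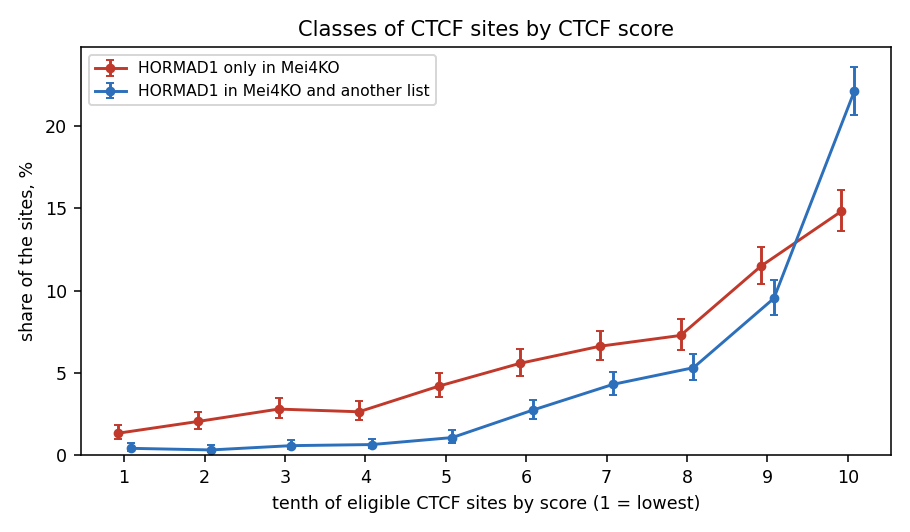
Share of eligible CTCF sites (y axis, percent) that were Mei4KO-only (red) or recurrent (blue) in 10 equal classes of CTCF score (x axis, lowest to highest), with Wilson 95% intervals as bars. Both shares are highest in the top class, at 14.8% and 22.1%.

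IHO1 was rarely called at these sites. In Mei4KO, the genotype that defined them, 22 of 1803 sites had an IHO1 peak (1.22%, 0.807 to 1.84), beside 1.85% of all eligible CTCF sites. Recurrent sites had one at 308 of 1442 (21.4%, 19.3 to 23.5), a difference of -20.1 points (-22.4 to -18.0). Sites without HORMAD1 had one at 20 of 26538 (0.0754%), a difference of 1.14 points (0.730 to 1.77). Both differences were called. In the narrower 50% of CTCF peaks, with 418 Mei4KO-only sites, the second fell to 0.232 points (0.0329 to 1.34), still called. The Mei4KO-only share thus lay between those of these 2 classes. The highest share was at the 847 sites with HORMAD1 in other lists but not in Mei4KO (218 sites, 25.7%, 22.9 to 28.8). IHO1 in Mei4KO was thus not most frequent where HORMAD1 was listed in Mei4KO.

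In each of the other IHO1 lists the share was below 1%. IHO1 lay at 17 Mei4KO-only sites in the wild type (0.943%, background 1.36%), 7 in Spo11KO (0.388%, background 1.19%), 3 in Prdm9KO (0.166%, background 0.669%) and 1 in Hormad1KO (0.0555%, background 0.0555%). At recurrent sites these shares, in the same order, were 14.8%, 13.1%, 7.00% and 0.208%. The 4 differences from recurrent sites were -13.9, -12.7, -6.84 and -0.153 points, all called except that in Hormad1KO (-0.557 to 0.140). Sites without HORMAD1 had IHO1 at 0.0829%, 0.0867%, 0.0226% and 0.0339%. The Mei4KO-only share was higher by a called amount in the wild type (0.860 points), Spo11KO (0.302) and Prdm9KO (0.144), and not in Hormad1KO (0.0215). Between Mei4KO and the wild type the IHO1 share of Mei4KO-only sites differed by 0.277 points (-0.379 to 0.954), which was not called. By the rule, HORMAD1 was listed at all of these sites in Mei4KO and at none in the wild type. No link between HORMAD1 and IHO1 can be read from that. The IHO1 list of Mei4KO was shorter (1036 peaks) than that of the wild type (1589), but it overlapped more eligible CTCF sites (568 against 417).

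SYCP3, the other axis protein, showed a like pattern. In Mei4KO it lay at 20 Mei4KO-only sites (1.11%, 0.719 to 1.71), beside 1.09% of all eligible sites. Recurrent sites had it at 8.39% (121 of 1442; difference -7.28 points, -8.87 to -5.83) and sites without HORMAD1 at 0.317% (84 of 26538; difference 0.793 points, 0.396 to 1.39). The second difference was 0.185 points (-0.0195 to 1.29) and no longer called in the narrower 50% of CTCF peaks. Sites with HORMAD1 in other lists but not in Mei4KO had SYCP3 in Mei4KO at 12.8% (10.7 to 15.2). From the wild type to Mei4KO the SYCP3 share of Mei4KO-only sites differed by 0.333 points (-0.274 to 0.967), which was not called.

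The SYCP3 lists of Iho1KO, Spo11KO and Prdm9KO each come from a group of 1 sample. The largest SYCP3 share came from Iho1KO, whose SYCP3 list is the longest at 5380 peaks. It had a peak at 59 Mei4KO-only sites (3.27%, 2.55 to 4.20), against 3.75% of all eligible sites, 25.1% of recurrent sites (difference -21.8 points, -24.2 to -19.5) and 1.77% of sites without HORMAD1 (difference 1.51 points, 0.759 to 2.44). With only the upper 50% of CTCF peaks by score, the last difference was 0.620 points (-0.161 to 1.64) and was not called. Sites with HORMAD1 in other lists but not in Mei4KO had SYCP3 in Iho1KO at 30.7% (27.7 to 33.9). Of the 59 Mei4KO-only sites, 35 lay within 1 kb of a protein-coding gene end (59.3%, 46.6 to 70.9), compared with 15.7% of the other 1744. This share was not computed for sites of the other classes with SYCP3 in Iho1KO. It is therefore not known to be particular to Mei4KO-only sites. The other SYCP3 lists covered 24 Mei4KO-only sites in Spo11KO (1.33%, background 1.46%), 15 in Hormad1KO (0.832%, background 1.21%), 14 in the wild type (0.776%, background 1.24%) and 5 in Prdm9KO (0.277%, background 0.483%). Sites without HORMAD1 had 0.723%, 0.0603%, 0.0339% and 0.113% in the same order. The excess of Mei4KO-only sites over them was called in Spo11KO (0.608 points), Hormad1KO (0.772) and the wild type (0.743), and not in Prdm9KO (0.164). Recurrent sites had 9.02%, 13.2%, 13.7% and 4.16%, and each of these 4 differences was called.

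**Figure D3:**
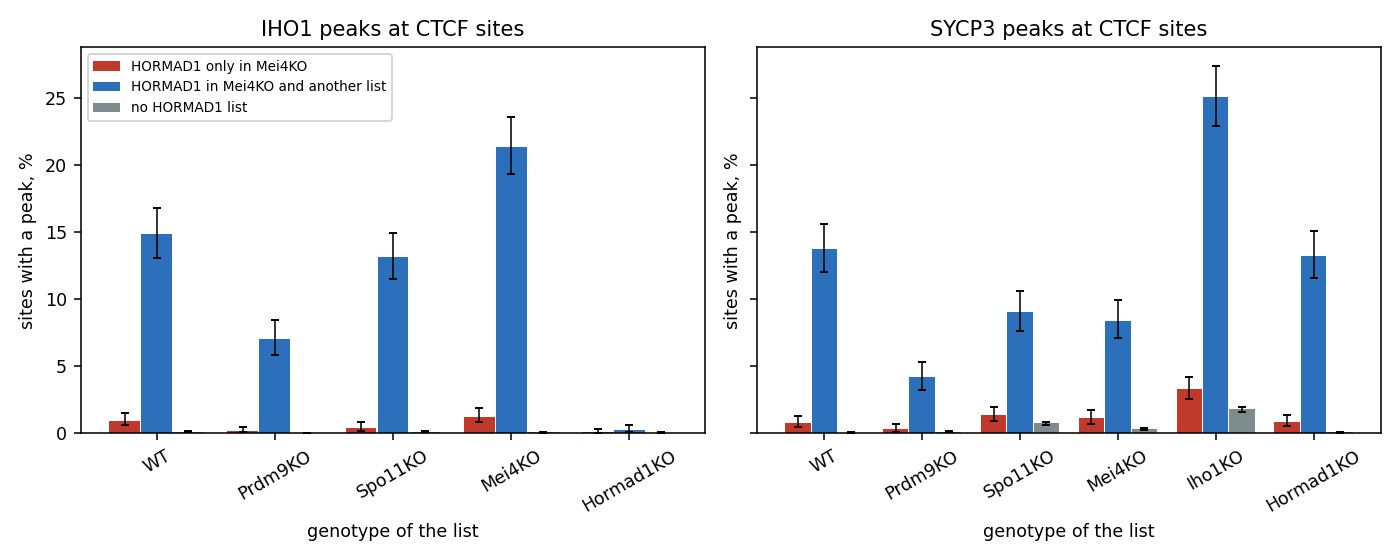
Percent of CTCF sites with an IHO1 peak (left) or a SYCP3 peak (right) in each genotype's list (x axis), for Mei4KO-only sites (red), recurrent sites (blue) and sites without a HORMAD1 peak (grey), with Wilson 95% intervals. The red bars reach at most 1.22% for IHO1 and 3.27% for SYCP3, while blue bars reach 21.4% and 25.1%.

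IHO1 in any list lay at 40 Mei4KO-only sites (2.22%, background 2.77%) and SYCP3 in any list at 80 (4.44%, background 4.5%). In all, 1697 of 1803 Mei4KO-only sites (94.1%, 92.9 to 95.1) had neither IHO1 nor SYCP3 in any of the 11 lists of these proteins, beside 94.5% of all eligible sites. Recurrent sites had neither at 59.2% (difference 35.0 points, 32.2 to 37.7), and sites without HORMAD1 at 97.8% (difference -3.70 points, -4.90 to -2.69). Sites with HORMAD1 in other lists but not in Mei4KO had neither at 49.8%. IHO1 was called in 1 list at 33 Mei4KO-only sites, in 2 lists at 5, and in 3 and 4 lists at 1 site each. No MEI4 peak of any of the 5 MEI4 lists lay at a Mei4KO-only site, against 0.131% of eligible sites. By list that background was 0.0294% in the wild type, 0.0163% in Prdm9KO, 0.0294% in Spo11KO, 0.0424% in Iho1KO and 0.0751% in Hormad1KO. The interval for MEI4 in any list at Mei4KO-only sites reached 0.213%, so it included the 0.131%. The difference was not called from sites without HORMAD1 (-0.0980 points, -0.144 to 0.117). It was called from recurrent sites (-0.555 points, -1.09 to -0.208). Sites at wild-type DMC1 hotspots had been removed from all classes. DMC1 hotspots of Hormad1KO lay at 1 Mei4KO-only site (0.0555%), against 0.0849% of eligible sites.

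The differences in IHO1 in Mei4KO were also called within each class of CTCF score, and those in SYCP3 only in some. In the highest of the 4 score classes, 6 of 927 Mei4KO-only sites (0.647%) had IHO1 in Mei4KO, against 241 of 1064 recurrent sites (22.7%) and 8 of 5140 sites without HORMAD1 (0.156%). In the lowest class the values were 6 of 144 (4.17%), 5 of 29 (17.2%) and 3 of 7439 (0.0403%). The difference from recurrent sites was called for IHO1 in all 4 classes, from -22.0 points in the highest to -13.1 in the lowest. For SYCP3 in Mei4KO it was called in 3 classes and not in the lowest (-7.57 points, -23.7 to 0.366), which held only 29 recurrent sites. From sites without HORMAD1, SYCP3 in Mei4KO differed by a called amount in the lowest (2.68 points) and highest class (0.513) and not in the middle 2 (0.786 and 0.588). SYCP3 in Iho1KO did so in the lower 2 classes (4.80 and 2.82 points) and not in the upper 2 (0.614 and 0.615).

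**Figure D4:**
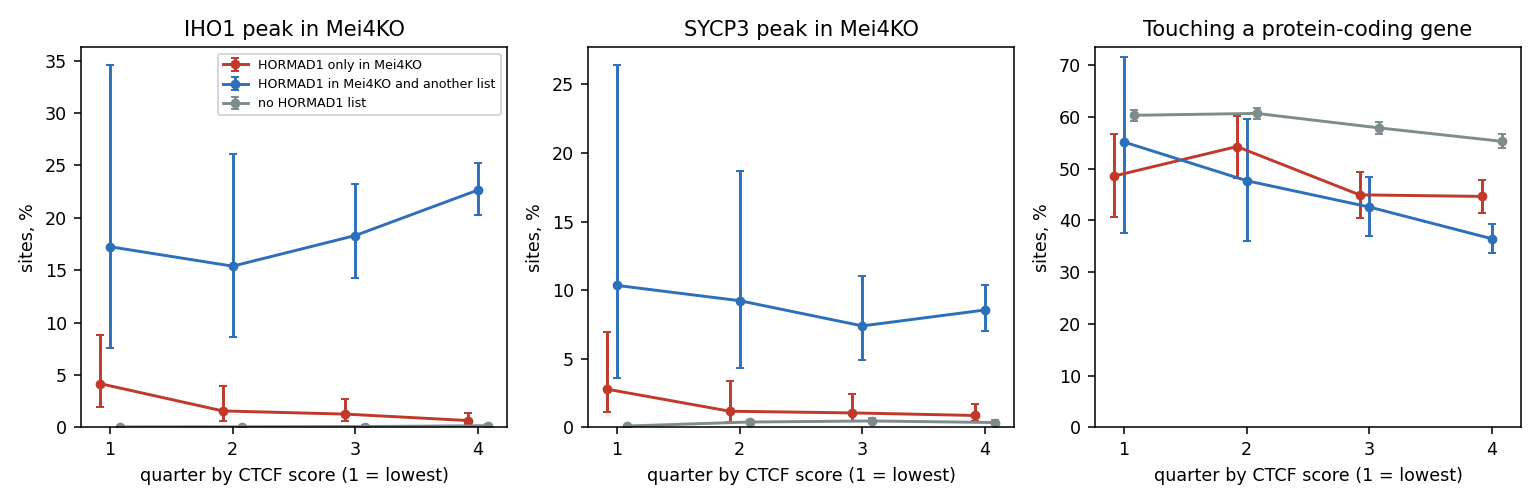
Percent of sites (y axis) with an IHO1 peak in Mei4KO, with a SYCP3 peak in Mei4KO, or touching a protein-coding gene, in 4 equal classes of CTCF score (x axis), for Mei4KO-only sites (red), recurrent sites (blue) and sites without HORMAD1 (grey), with Wilson 95% intervals. In the highest class 0.647% of Mei4KO-only sites and 22.7% of recurrent sites had IHO1.

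Only 3 Mei4KO-only sites (0.166%) had both IHO1 and SYCP3 in Mei4KO, beside 0.529% of eligible sites and 84 recurrent sites (5.83%), and their CTCF scores lay below the median of 2.96. The first, at chr8:112049382-112052363 (score 2.33), lies between genes, 28853 bp from Terf2ip, which encodes the telomere protein RAP1. SYCP3 was also listed there in the wild type, Spo11KO and Iho1KO. The second, at chr6:92183026-92186219 (score 1.12), lies at the ends of Mrps25, a mitochondrial ribosomal protein gene, and Rbsn, which encodes an endosomal trafficking protein. It had SYCP3 in Prdm9KO and Hormad1KO too. The third, at chr1:127946345-127950173 (score 0.81), lies 2468 bp from Rab3gap1, which encodes a subunit of a Rab GTPase regulator. It had IHO1 in the wild type and Spo11KO too, and SYCP3 in Prdm9KO and Iho1KO. Their Mei4KO HORMAD1 peaks were 8515, 11053 and 12546 bp wide, against a median of 2391 bp for the HORMAD1 peaks at Mei4KO-only sites.

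Mei4KO-only sites were less often in genes than CTCF sites without HORMAD1. A protein-coding gene of RefSeq GRCm38.p6 was touched by 837 of the 1803 CTCF peaks (46.4%, 44.1 to 48.7), beside 56.8% of all eligible sites. The share was 58.9% at sites without HORMAD1 (difference -12.4 points, -14.8 to -10.1) and 38.6% at recurrent sites (difference 7.87 points, 4.44 to 11.3). The first difference was called in all 4 score classes, from -6.42 to -13.0 points. The second was called only in the highest class (8.19 points, 3.87 to 12.5). The gene table has no exons, so introns and exons cannot be told apart here.

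At gene ends and starts the differences were small and depended on the peaks compared. Within 1 kb of an end of a protein-coding gene lay 309 Mei4KO-only sites (17.1%, 15.5 to 18.9), beside 14.4% of eligible sites. The share was 14.1% at recurrent sites and at sites without HORMAD1, and 17.1% at the 847 sites with HORMAD1 in other lists but not in Mei4KO, equal to that of the Mei4KO-only sites. The differences, 3.0 points (1.27 to 4.85) from sites without HORMAD1 and 2.99 points (0.466 to 5.48) from recurrent sites, were called. Both reversed and lost their call in the narrower 50% of CTCF peaks, to -0.475 and -4.14 points. They also changed direction with CTCF score. From sites without HORMAD1 the difference was 11.3 points in the lowest of the 4 score classes and -3.69 points in the third, both called. From recurrent sites it was -30.9 points in the lowest and 6.5 points in the highest, both called. At annotated start sites lay 176 of 1732 Mei4KO-only sites off chromosome 18 (10.2%, 8.83 to 11.7), beside 9.34% of eligible sites. Recurrent sites had 10.1% (difference 0.0477 points, -2.10 to 2.16) and sites without HORMAD1 9.18% (difference 0.978 points, -0.405 to 2.53), and neither difference was called. In the narrower 50% of CTCF peaks both reversed, to -0.750 and -0.834 points, and were again not called. Within score classes the difference from sites without HORMAD1 was -4.79 and -2.98 points in the middle 2 classes, both called, and not called in the lowest (2.95) and highest (0.959). From recurrent sites it was -7.19 points in the second class and 3.75 points in the highest, both called.

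Along the chromosomes, Mei4KO-only sites were more frequent towards the distal end, as were the peaks of several HORMAD1 lists. Mouse chromosomes have their centromere at one end, where coordinates start. In the distal 20% of the chromosome lay 640 of the 1803 sites (35.5%, 33.3 to 37.7), beside 27.9% of eligible CTCF sites. The share was 28.4% for recurrent sites (difference 7.13 points, 3.91 to 10.3) and 27.2% for sites without HORMAD1 (difference 8.28 points, 6.03 to 10.6). Sites with HORMAD1 in other lists but not in Mei4KO had 32.5% (29.4 to 35.7). Of all autosomal HORMAD1 peaks, at CTCF sites or not, 35.1% in Mei4KO, 35.0% in Prdm9KO, 32.8% in Iho1KO, 31.3% in Spo11KO and 25.6% in the wild type lay there, so a distal share of this size was not particular to the Mei4KO-only sites. The difference from sites without HORMAD1 was called in all 4 score classes (7.01 to 17.5 points), and that from recurrent sites in the highest class alone (5.45 points, 1.45 to 9.46). In the narrower 50% of CTCF peaks the difference from recurrent sites was 6.85 points (-1.67 to 14.8) and not called. Of eligible CTCF sites, 7.49% (6.95 to 8.06) were Mei4KO-only in the distal 20% and 4.64% (4.05 to 5.32) in the centromere-proximal 20%. The share was higher in the distal 20% than in the rest on 17 of 19 chromosomes, and for recurrent sites on 7 of 19. The median CTCF score of eligible sites was 1.86 within 5 Mb of the distal end and 1.93 beyond 40 Mb. Position was examined after the data had been seen.

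**Figure D5:**
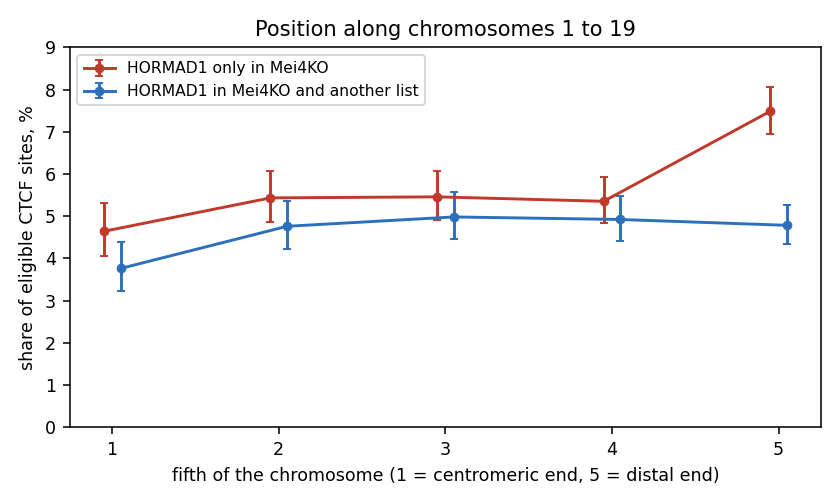
Share of eligible CTCF sites (y axis, percent) that were Mei4KO-only (red) or recurrent (blue) in 5 equal parts of chromosomes 1 to 19 (x axis, from the centromeric to the distal end), with Wilson 95% intervals. The Mei4KO-only share is 7.49% in the distal part and between 4.64% and 5.46% in the other 4.

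Of the 10 Mei4KO-only sites with the highest CTCF scores, 5 lay within 1 kb of a protein-coding gene end, beside 14.4% of eligible sites. In the highest of the 4 score classes the share was 19.1% of Mei4KO-only sites, 12.6% of recurrent sites and 17.2% of sites without HORMAD1. The 10 sites are examples chosen by rank and show no enrichment. The highest, at chr6:47650084-47651906 with a score of 12.4, is 994 bp from the predicted gene Gm40369. A site with a score of 9.07 at chr9:50526756-50529978 covers the start of Pts, which encodes an enzyme of tetrahydrobiopterin synthesis, and was the sole one of the 10 highest with a SYCP3 or IHO1 peak (SYCP3 in Iho1KO). One with 8.58 at chr6:42644510-42646068 covers the start of Tcaf2, which encodes a factor associated with TRP channels. Another at chr2:29052351-29055369 (8.47) covers the start of Cfap77, a gene for a protein of cilia and flagella, and one at chr8:84988337-84992122 (7.40) that of Hook2, which encodes a microtubule-linked adaptor. The other 5 of the 10 lie between protein-coding genes. They are at chr18:68473532-68475631 (8.56; 44211 bp from Mc2r, the receptor for adrenocorticotropic hormone), chr9:54675657-54678100 (8.00; 13771 bp from Acsbg1), chr15:86053323-86055102 (7.74; 2592 bp from Gramd4), chr16:5305785-5308239 (7.52; 49828 bp from Eef2kmt) and chr11:11787219-11789557 (7.00; 10730 bp from Fignl1).

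At genes of meiosis and chromosome architecture the share of such sites was near that of all eligible sites, 5.89%. Of 36 meiotic axis and break genes placed on autosomes, 22 had an eligible CTCF site and 2 a Mei4KO-only one, so 2 of 36 sites (5.56%) were Mei4KO-only. Stra8, which drives entry into meiosis, had one in its gene body (chr6:34925667-34928614, score 2.74). Iho1 itself had one with a low score of 0.90 (chr9:108404008-108406185), at which a HORMAD1 peak of 12124 bp covered 626 bp of the CTCF peak. Of 16 cohesin and architecture genes, Ctcfl alone had a member, with a score of 4.53 at chr2:173096640-173098760, 1 of 18 eligible sites (5.56%). Ctcfl encodes the germline paralogue of CTCF. Of 32 imprinted genes, Kcnq1 (score 4.98, chr7:143150750-143155620) and Airn (score 4.44, chr17:12809780-12811826) had 1 each, 2 of 31 eligible sites (6.45%). None of the 7 eligible sites at homeobox cluster genes was Mei4KO-only.

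The HORMAD1 peaks that chose these sites, 1778 in number, are described here without a test. One member lay in each of 1746 of them, 2 members in each of 29, and 3 members in each of 3. Their median width was 2391 bp (quartiles 1685 and 3515), against 2734 bp at recurrent sites and 2580 bp in the whole Mei4KO list. The centres of the CTCF and HORMAD1 peaks lay a median of 369 bp apart, and the HORMAD1 peak covered a median of 84.6% of the CTCF peak. Elsewhere along their length, 53 of the 1778 peaks overlapped a HORMAD1 peak of another genotype. The nearest HORMAD1 peak of the other 4 lists was a median of 102146 bp away, within 5 kb for 130 sites (7.21%) and within 1 kb for 23. Just inside the rule were sites 33, 86 and 215 bp from another list's peak, with CTCF scores of 1.83, 2.81 and 1.72. Just outside it were recurrent sites with 191, 342 and 362 bp of overlap with another list, with scores of 0.99, 0.87 and 1.74. The removal of wild-type hotspots took out 59 of 1862 sites.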

How the data were processed

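Members, classes and gene lists were chosen with earlier results of these data known. Per the submitters' processing notes, Bowtie2, MACS2 and mm10 were used, with no role, version or threshold given, and whether replicates were pooled is not given in the sources used here. According to the design text, the signal of mice lacking the protein was subtracted for HORMAD1, IHO1, SYCP3 and MEI4, and no such step is named for CTCF. The authors deposited 24 lists: peak starts and ends in base pairs (another kind of value, neither counts nor levels), a CTCF score written with a decimal comma, and a DMC1 signal that was not used. Depth is unknown. From these, overlaps of at least 1 bp were computed in Python 3.11.15, with Wilson intervals for shares and Newcombe intervals for differences, paired for 2 lists at the same sites, and checked on simulated data. Gene positions are those of 21896 protein-coding RefSeq genes (GRCm38.p6, the assembly called mm10), and start sites come from 32851 RefSeq promoter windows. Named sites were the 10 with the highest CTCF score, up to 5 with IHO1 and SYCP3 in Mei4KO, the 5 highest at gene ends, and those at the listed genes. The planned motif search in whole peaks was replaced by promoters, because no genome was used here. Alternatives are given at the end.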

Additional observations from a re-analysis of the deposited data

How the results depend on the processing

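Of 166 values recomputed under the alternatives, 149 kept their direction and call, or, for the number of sites, stayed within 1.5 times. A difference of 0 was counted among these. It arose for IHO1 and for SYCP3 between Mei4KO and the wild type, where no direction was left. The number of Mei4KO-only sites was between 1399 and 1862 except with the wider 50% of the Mei4KO HORMAD1 peaks (832) and the narrower 50% of CTCF peaks (418), which keep fewer peaks by construction. The differences in CTCF score, in IHO1 in Mei4KO and in touching a gene kept their direction and call under each alternative run, and so did that in SYCP3 in Mei4KO from recurrent sites. IHO1 in Mei4KO differed from recurrent sites by -12.6 to -25.1 points. From sites without HORMAD1 it differed by 0.232 to 1.61 points. The smallest value came from the narrower CTCF peaks, with an interval from 0.0329 that only just excluded 0. With the upper 50% of CTCF peaks by score, the differences from sites without HORMAD1 were 0.200 points at gene ends and 0.620 for SYCP3 in Iho1KO, both no longer called, and -0.0185 at start sites, reversed. With the wider HORMAD1 peaks the difference at start sites was 2.51 points and called, and that at gene ends from recurrent sites 2.37 and not called. The latter was also not called with all annotated genes (0.894) or without the 1 kb margin (2.23). In the narrower CTCF peaks the values were 0.185 for SYCP3 in Mei4KO from sites without HORMAD1 and 6.85 in the distal 20% from recurrent sites, neither called, and reversed at gene ends (-0.475 and -4.14) and start sites (-0.834 and -0.750). The start-site difference from recurrent sites also reversed with 1 site per HORMAD1 peak (-0.0351) and with hotspot sites kept (-0.0184). The narrower CTCF peaks and the results on gene bodies, start sites and chromosome position were chosen after the data were seen. The cause of these changes was not tested. No paired analysis was possible because each group has 1 list, so replicates could not be matched by number or left out. Differences between genotypes at the Mei4KO-only sites are paired by site, not by replicate. The motif comparison in whole CTCF peaks was not run. List length and unknown depth limit every absence of a peak.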

Other observations

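Mei4KO-only sites were found on all 19 autosomes. Their share of the eligible CTCF sites ran from 4.50% on chromosome 1 (94 of 2087, 3.69 to 5.48) to 7.24% on chromosome 18 (71 of 981, 5.78 to 9.03). These are the lowest and the highest of the 19, and no test was made between them. Recurrent sites ran from 3.27% on chromosome 16 to 5.94% on chromosome 10. On chromosome 18 recurrent sites made up 3.87% (2.84 to 5.27).

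Distance to break hotspots was nearly the same in the 3 classes. The nearest wild-type DMC1 hotspot was a median of 53671 bp from a Mei4KO-only site, 52816 bp from a recurrent site and 52489 bp from a site without HORMAD1. For sites with HORMAD1 in other lists but not in Mei4KO the median was 46989 bp. Sites that overlapped such a hotspot had been removed from every class, so these distances depend on that choice. The nearest IHO1 peak of Mei4KO was a median of 482254 bp away from Mei4KO-only sites, 305002 bp from recurrent sites and 612122 bp from sites without HORMAD1. For SYCP3 peaks of Mei4KO these medians were 479607, 501726 and 603391 bp. The 22 Mei4KO-only sites with IHO1 in Mei4KO had a median CTCF score of 2.16, and the other 1781 had 2.97.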
